A study of Mus musculus with 12 samples.

Results

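Compressed macrophages held less mRNA of most type I interferon stimulated antiviral genes than uncompressed controls. The genes described are 40 interferon-induced genes chosen by symbol, out of 56941 gene IDs in the count table, and each of the 40 symbols matched an ID. All 40 had enough counts to be tested, so none is missing from the counts given. Of the 40 genes, 29 were lower under compression, 1 was higher and 10 did not pass the test. Over all 15001 genes tested, 21.9% were called lower, 24.5% higher and 46.4% in either direction. The 1 gene that rose was *Ifi27*, and the largest decreases were those of *Ifit3b*, *Mx1*, *Slfn9*, *Oasl2* and *Cmpk2*.

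RNA came from RAW264.7 cells, a macrophage line from a virus-induced tumor of a BALB/c mouse, grown in DMEM with fetal bovine serum and antibiotics. Cells were seeded on porous culture inserts and covered for 24 h. Controls (labelled Agarose, n = 6) carried a cushion of 1% agarose alone, and compressed samples (labelled Weighted, n = 6) carried the same cushion under a printed weight that applied 0.14 kPa. All 12 samples are of 1 cell line, none received interferon or a microbial stimulus according to the labels, and no source states that the replicates are independent cultures. The p-values therefore reflect the spread among these libraries only, and that spread may be technical.

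Type I interferons are cytokines that cells release when they sense viral or other misplaced nucleic acid. They bind the receptor chains Ifnar1 and Ifnar2, the kinases Jak1 and Tyk2 then act on STAT factors such as Stat2, which join Irf9 in a complex that binds the interferon-stimulated response element (ISRE) near the start of antiviral genes. The products of those genes degrade or sequester viral RNA, stop translation, trap budding virions and sense nucleic acid. Macrophages express many of them at a resting level without added interferon, and Irf7 and the sensors feed back on interferon production.

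Each control library held 37948795 to 40463545 counts, and each compressed library held 33460807 to 39103987. Levels are given as CPM, which relates counts to the TMM-scaled library size, and log2 fold changes are compressed over control. Compressed replicate 6 stood apart from the other 5 compressed libraries, and lay outside their range for 82% of all tested genes and for 80% of the 40 genes described. Values of the 40 genes for which it was an outlier are therefore given with and without it. The line carried macrophage markers in every library: 11 of 12 listed markers were tested, with summed levels of 6502 to 6985 CPM in controls and 8098 to 9972 CPM under compression, and *Marco* was at 0 counts. Of these 11 markers, 6 were higher, 3 lower and 2 not called, against 24.5% higher and 21.9% lower over all tested genes. The part of these markers in the results was not tested. The summed levels of 5 fibroblast, 5 T cell, 4 B cell and 4 epithelial markers stayed at or under 0.362 CPM in every library, with *Col3a1*, *Cd3e*, *Cd3g*, *Cd2* and *Ms4a1* among those at 0 counts. Among 3 plasmacytoid dendritic cell markers only *Tcf4* was tested, which is also used by other cells, and *Siglech* and *Ccr9* held 2 and 20 counts over all 12 libraries. The 3 summed to 99.2 to 106 CPM in controls and 111 to 135 CPM under compression. Of 4 markers of conventional dendritic cells only *Zbtb46* was tested, and the 4 summed to 1.68 to 2.18 CPM in controls and 2.26 to 2.98 CPM under compression. *Tcf4* and *Zbtb46* were called higher, and their part in the results was not tested.

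Promoter windows, which span 250 bases before to 50 bases after the annotated start, were matched by symbol in RefSeq sequences of GRCm38.p6 for 29 of the 40 genes. The authors' processing notes name GRCm39, so these positions were not joined to the counts. Shown first are the bases upstream of the 3 genes with the largest decreases among those whose window holds the ISRE core, which is GAAA, any 2 bases and GAAA again on either strand, and of *Ifit3*, the near-identical neighbor of *Ifit3b*. Capitals mark the ISRE core, which reads TTTC, any 2 bases and TTTC where it lies on the other strand.

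Ifit3b: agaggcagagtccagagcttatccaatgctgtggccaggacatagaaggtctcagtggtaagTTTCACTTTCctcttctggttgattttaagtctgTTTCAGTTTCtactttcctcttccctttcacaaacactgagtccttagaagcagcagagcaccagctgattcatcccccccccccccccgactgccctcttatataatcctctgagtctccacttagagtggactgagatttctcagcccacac
Ifit3: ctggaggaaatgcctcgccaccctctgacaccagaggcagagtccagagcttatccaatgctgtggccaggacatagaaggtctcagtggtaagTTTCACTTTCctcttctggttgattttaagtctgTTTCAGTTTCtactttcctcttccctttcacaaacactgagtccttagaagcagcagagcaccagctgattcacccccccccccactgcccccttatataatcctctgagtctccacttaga
Ifit1: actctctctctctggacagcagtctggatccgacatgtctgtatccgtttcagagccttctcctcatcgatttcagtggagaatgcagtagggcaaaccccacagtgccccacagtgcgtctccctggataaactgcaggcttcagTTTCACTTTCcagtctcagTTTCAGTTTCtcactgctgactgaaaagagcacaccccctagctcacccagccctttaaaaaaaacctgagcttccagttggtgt
Slfn9: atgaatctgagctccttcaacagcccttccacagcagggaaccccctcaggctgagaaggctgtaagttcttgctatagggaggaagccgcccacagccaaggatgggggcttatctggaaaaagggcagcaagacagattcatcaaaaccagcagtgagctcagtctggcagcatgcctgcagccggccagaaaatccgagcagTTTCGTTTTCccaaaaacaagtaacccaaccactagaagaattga

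These 4 stretches lie upstream of the start site in the sense of the gene. In GRCm38.p6 they are chr19:34607707-34607956 (plus strand) for *Ifit3b*, chr19:34583279-34583528 (plus strand) for *Ifit3*, chr19:34640639-34640888 (plus strand) for *Ifit1* and chr11:82991831-82992080 (minus strand) for *Slfn9*. Each of the 3 *Ifit* genes holds 2 copies of the core, and *Slfn9* holds 1. The upstream stretches of *Ifit3* and *Ifit3b* share an identical run of 169 bases that contains both copies. *Ifi27*, the 1 gene called higher, had no window and was not searched, and neither were *Ifi204* and *Dhx58*. Of the genes with a window and a log2 fold change above 0, only *Ifih1*, which was not called, holds the core, at 33 bases after the start, within chr2:62646206-62646235 (minus strand): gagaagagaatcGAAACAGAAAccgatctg.

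The ISRE core was present in the windows of 15 of 29 genes (51.7%), against 3.99% of 27025 genes with a window. Of the 15 genes with the core, 10 were lower and 5 were not called, and of the 14 without it, 12 were lower and 2 were not called. Their median log2 fold changes were -0.40 and -0.49. The core of the gamma-activated site, an element of the interferon gamma response (GAS, which is TTC, any 3 bases and GAA) was present for 5 of 29 genes (17.2%), against 9.55% of all genes with a window, and it overlapped an ISRE core in 1 window, that of *Bst2*. A match is a description of letters, and a window without one says nothing of binding elsewhere.

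The summed level of the 40 genes was 3260 to 3460 CPM in control libraries and 2689 to 3048 CPM in compressed libraries, with no overlap. The median log2 fold change was -0.43 over the 40 genes and 0.02 over all tested genes. For 24 of the 40 genes (60%) all compressed libraries lay on the same side of all controls, against 33.6% of all tested genes. Decreases with a log2 fold change of -0.5 or below were called for 17 of the 40 genes, against 8.62% of all tested genes, and 1 gene rose by 0.5 or more, against 13.5%. DESeq2 also called 29 of the 40 genes lower and 1 higher, against 23.4% lower, 24.7% higher and 48.1% in either direction over all genes. Scaling by library size alone gave 29 and 1, against 27% lower, 20.5% higher and 47.5% in either direction. In bulk RNA, fewer cells that express a gene and less mRNA per cell cannot be told apart.

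**Figure D1:**
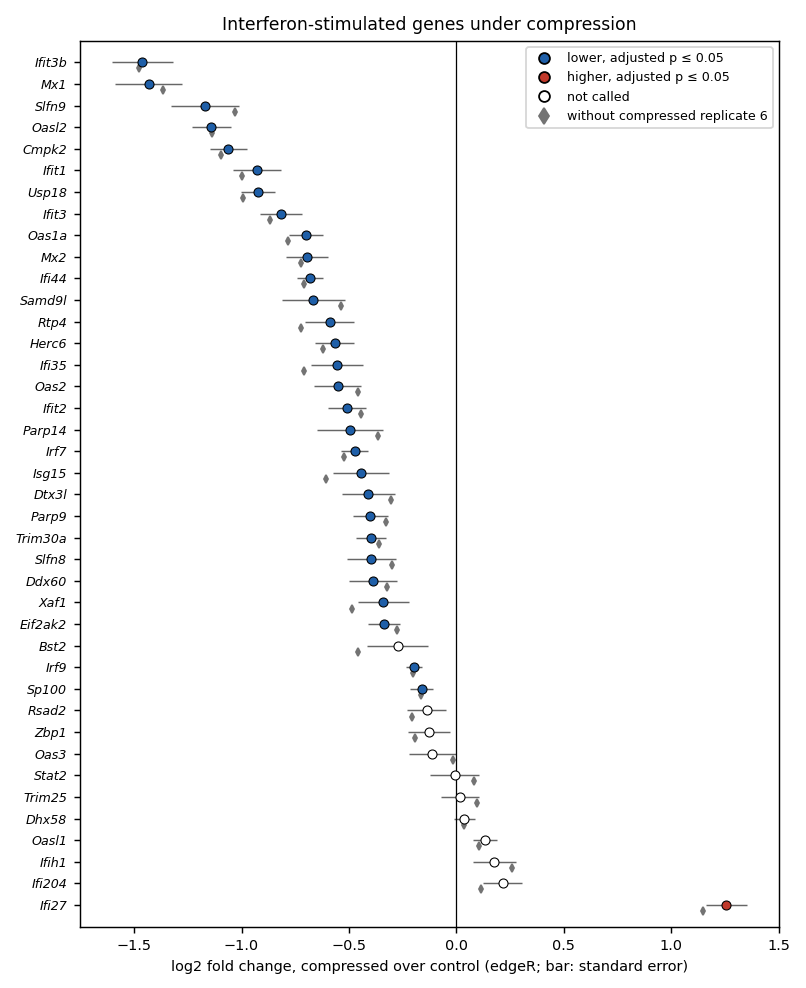
Change of each of the 40 genes as log2 of compressed over control (circles with the standard error from edgeR; blue, called lower; red, called higher; open, not called) and the value without compressed replicate 6 (grey diamonds). Blue circles fill the range from -1.46 to -0.16, and *Ifi27* lies alone at 1.26.

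Without compressed replicate 6, edgeR called 32 of the 40 genes lower, 5 higher and 3 in neither direction, against 32.2% lower, 33.8% higher and 66% in either direction over all genes. All 29 genes called lower with 12 libraries were also called lower without it. The decreases added were those of *Bst2*, *Rsad2* and *Zbp1*, and the increases added were those of *Ifih1*, *Ifi204*, *Oasl1* and *Trim25*. *Oas3*, *Stat2* and *Dhx58* were then left uncalled. Leaving out compressed replicate 2 or 3 instead gave 2 and 3 genes called higher, against 3433 of 15159 and 3510 of 15143 genes tested.

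The IFIT genes encode proteins that bind foreign RNA ends and hinder translation of viral RNA, and the mRNAs of all 4 listed were lower. *Ifit1*, whose product recognizes RNA that lacks the host cap methylation, was at 13.8 CPM in the lowest control, 14.3 at the median and 18 in the highest, and at 6.07, 8.40 and 9.76 CPM in the compressed libraries. All 6 compressed libraries were below all 6 controls, and the log2 fold change was -0.93 with a standard error of 0.11 (Benjamini-Hochberg adjusted p = 1.27e-05 by the quasi-likelihood test of edgeR). *Ifit2* ran from 22.9 over a median of 24.4 to 25.9 CPM in controls and from 13.1 over 17 to 20.3 CPM under compression, a log2 fold change of -0.51 (adjusted p = 3.07e-04 from edgeR). *Ifit3* ran from 5.02 over 5.61 to 6.64 CPM in controls and from 2.74 over 3.31 to 3.79 CPM under compression. The log2 fold change was -0.81, and again no library of one group lay within the other (adjusted p = 1.17e-05 from edgeR).

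*Ifit3b*, a duplicate of *Ifit3*, had the largest decrease of the 40 genes. It ran from 1.38 over 1.79 to 1.96 CPM in controls and from 0.396 over 0.678 to 0.700 CPM under compression, a log2 fold change of -1.46 (SE 0.14, adjusted p = 1.60e-06 from edgeR). Of the 50-base windows in its longest transcript, 45% also occur in another gene, nearly all of them in *Ifit3*, and 51.2% of those in *Ifit3* occur in *Ifit3b*. The 2 genes share reads in a way that the counting, whose program is not given in the sources used here, could split differently, so their separate values are uncertain while both were lower. *Eif2ak2*, which encodes the RNA-activated kinase PKR that stops translation, was better counted. It ran from 168 over 174 to 179 CPM in controls and from 108 over 139.7 to 159 CPM under compression, and its log2 fold change was -0.34 (adjusted p = 0.00212 from edgeR).

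Oligoadenylate synthetases sense double-stranded RNA and make short oligoadenylates that set off RNA decay, and this family was divided. *Oas1a* ran from 108 over 114 to 118 CPM in controls and from 60.8 over 67.6 to 89.6 CPM under compression, a log2 fold change of -0.70 (SE 0.08, adjusted p = 6.79e-06 from edgeR) and -0.785 without replicate 6, which held the highest compressed value. Of its 50-base windows, 57.6% also occur in the neighboring paralog *Oas1g*, so the share of reads between them is uncertain, and *Oas1g* itself had a log2 fold change of -0.68 (adjusted p = 9.03e-06 from edgeR). *Oas2* ran from 185 over 196 to 202 CPM in controls and from 87.1 over 135 to 154 CPM under compression, a log2 fold change of -0.55 (adjusted p = 8.81e-04 from edgeR) and -0.46 without replicate 6. The lowest of these was compressed replicate 6, and the other 5 compressed libraries, from 133 CPM upward, were also below every control.

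*Oas3*, the largest of the synthetases, was not called. It ran from 269.7 over 282 to 291 CPM in controls and from 169.8 over 266 to 307 CPM under compression, and its log2 fold change was -0.11 (adjusted p = 0.436 from edgeR) and -0.02 without compressed replicate 6 (adjusted p = 0.738 from edgeR). The ratio of *Oas1a* to *Oas3* was 0.371 to 0.421 in the controls, and in the compressed libraries its lowest value was 0.225, its median 0.241 and its highest, that of replicate 6, 0.528. Apart from replicate 6, the 2 genes of this cluster therefore changed unequally within each library.

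The 2 like-named relatives also parted. *Oasl2* fell from a control range of 20.1 to 25.3 CPM (median 22.4) to a compressed range of 8.66 to 12.5 CPM (median 9.79), a log2 fold change of -1.14 (SE 0.09, adjusted p = 2.06e-07 from edgeR). *Oasl1*, whose product blocks translation of the *Irf7* mRNA in mice, ran from 108 over 112 to 119 CPM in controls and from 111 over 125 to 134 CPM under compression, with a log2 fold change of 0.13 (adjusted p = 0.0647 from edgeR). Without compressed replicate 6 its value was 0.10 and passed the test (adjusted p = 0.0341 from edgeR). The ratio of *Oasl2* to *Oasl1* was 0.181 to 0.212 in controls and 0.0736 to 0.0948 under compression, replicate 6 included.

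**Figure D2:**
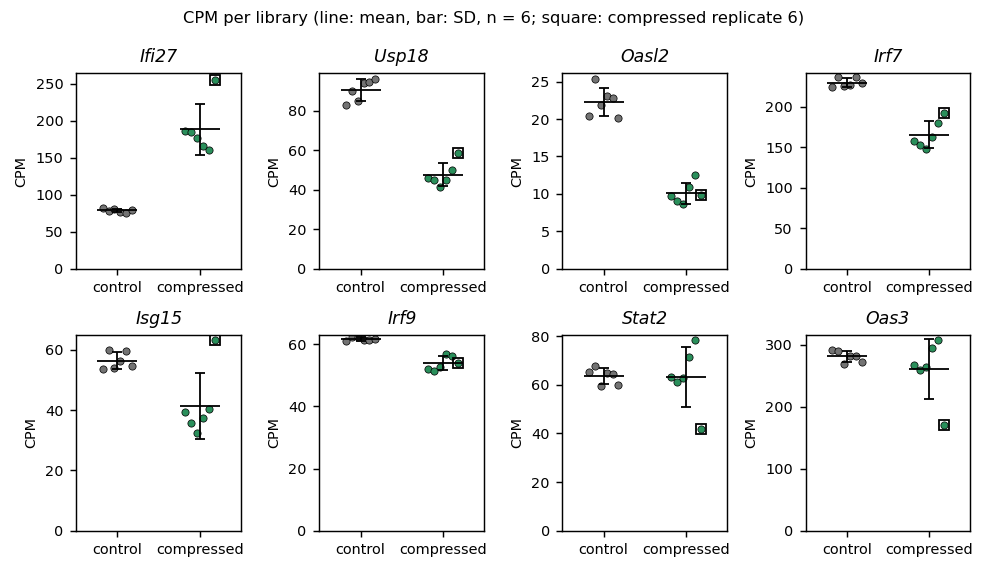
CPM in each of 6 control and 6 compressed libraries for 8 genes (points, with the mean as a line and the SD as a bar; the square marks compressed replicate 6). *Usp18*, *Oasl2*, *Irf7* and *Irf9* lie lower in every compressed library, *Ifi27* lies higher, and *Isg15*, *Stat2* and *Oas3* overlap between the groups.

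The Mx proteins are dynamin-like GTPases that block early steps of viral replication, and both mRNAs were lower. *Mx1* was scarce, from 1.24 over 1.42 to 1.63 CPM in controls and from 0.349 over 0.578 to 0.663 CPM under compression, a log2 fold change of -1.43 (SE 0.16, adjusted p = 4.76e-06 from edgeR). *Mx2* ran from 10.5 over 11.4 to 13.9 CPM in controls and from 6.18 over 7.73 to 8.23 CPM under compression, a log2 fold change of -0.70 (adjusted p = 4.54e-05 from edgeR). Neither gene had an overlap between the groups. Many laboratory mouse strains carry disrupted Mx genes, and whether the transcripts counted here encode a working protein was not tested.

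Isg15 is a ubiquitin-like protein that is attached to other proteins, Herc6 is a ligase that attaches it in mice, and Usp18 removes it and also dampens signaling at the interferon receptor. *Usp18* fell most. It ran from 82.6 over 91.8 to 96.2 CPM in controls and from 41.4 over 45.5 to 58.4 CPM under compression, a log2 fold change of -0.92 (SE 0.08, adjusted p = 4.13e-07 from edgeR). *Herc6* ran from 8.29 over 9.34 to 9.55 CPM in controls and from 5.24 over 6.04 to 7.19 CPM under compression, a log2 fold change of -0.57 (adjusted p = 1.67e-04 from edgeR). Of the 50-base windows of *Herc6*, 23.8% also occur in an overlapping gene model on the same strand.

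*Isg15* was lower in all compressed libraries but 1. It ran from 53.6 over 55.4 to 59.9 CPM in controls, and from 32.5 to 40.5 CPM in 5 compressed libraries, while compressed replicate 6 was at 63.2 CPM, above every control. Its log2 fold change was -0.44 with all libraries (SE 0.13, adjusted p = 0.0134 from edgeR) and -0.61 without replicate 6 (adjusted p = 1.29e-09 from edgeR).

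Of the factors that transmit the interferon signal, *Irf7* and *Irf9* were lower and *Stat2* was not called. *Irf7*, the factor that amplifies interferon production, ran from 224 over 228 to 237 CPM in controls and from 148 over 160.5 to 192 CPM under compression, a log2 fold change of -0.47 (SE 0.06, adjusted p = 2.93e-05 from edgeR). *Irf9*, the DNA-binding part of the complex at the ISRE, ran from 61.0 over 61.6 to 62.4 CPM in controls and from 51.5 over 53.2 to 56.8 CPM under compression. The log2 fold change of -0.20 was small, and the controls were so tight that the groups did not overlap (adjusted p = 9.20e-04 from edgeR). *Stat2* ran from 59.3 over 64.7 to 67.5 CPM in controls and from 41.9 over 63.0 to 78.5 CPM under compression, a log2 fold change of -0.01 (SE 0.11, adjusted p = 0.960 from edgeR). Its lowest value was that of replicate 6, and without that library the log2 fold change was 0.08 (adjusted p = 0.202 from edgeR).

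Of the 5 sensors of foreign nucleic acid 1 was called, against 46.4% of all tested genes. Without compressed replicate 6, 4 were called, against 66% of all genes. Of these 4, *Ddx60* and *Zbp1* were lower and *Ifih1* and *Ifi204* higher. *Ddx60*, a helicase that aids RNA sensing, was lower at -0.39 (adjusted p = 0.0105 from edgeR), although its highest compressed library, at 13.5 CPM, reached into the control range of 12.9 to 13.8 CPM. *Ifih1*, which encodes the sensor of long double-stranded RNA MDA5, ran from 62.3 over 66.9 to 71.6 CPM in controls and from 52.2 over 79.5 to 89.0 CPM under compression. Its log2 fold change was 0.18 (adjusted p = 0.175 from edgeR) and, without replicate 6, which held the lowest value, 0.26 (adjusted p = 2.55e-05 from edgeR). *Dhx58*, which encodes the regulator LGP2, had 59.7 to 66.4 CPM in controls and 61.1 to 70.0 CPM under compression, a log2 fold change of 0.04 (adjusted p = 0.570 from edgeR).

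*Zbp1*, a sensor of Z-form nucleic acid that can start necroptosis, had a log2 fold change of -0.13 (adjusted p = 0.317 from edgeR) and of -0.19 without replicate 6 (adjusted p = 0.0379 from edgeR). *Ifi204*, a DNA sensor of the PYHIN family, ran from 19.8 over 20.3 to 21.1 CPM in controls and from 20.2 over 22.5 to 31.3 CPM under compression, where the highest value was that of replicate 6. Its log2 fold change was 0.21 (adjusted p = 0.0659 from edgeR) and 0.11 without that library (adjusted p = 0.0258 from edgeR). Of its 50-base windows, 30.2% also occur in other genes, chiefly *Ifi211*, which leaves its count uncertain.

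Among effectors at membranes and in nucleotide metabolism, *Ifi27* went against the other genes. *Ifi27*, which encodes a small hydrophobic membrane protein of the ISG12 family, ran from 76.0 over 78.7 to 82.2 CPM in controls and from 160.0 over 180.5 to 255 CPM under compression. It was 2.39-fold higher, a log2 fold change of 1.26 (SE 0.10, adjusted p = 1.80e-07 from edgeR), and 1.15 without replicate 6, which held the highest value. Every compressed library exceeded every control.

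*Cmpk2*, a mitochondrial nucleotide kinase, and *Rsad2*, which encodes viperin and makes a chain-terminating nucleotide, are neighbors in the genome, and their values differed. *Cmpk2* ran from 25.6 over 30 to 33.5 CPM in controls and from 11.8 over 14.6 to 15.7 CPM under compression, a log2 fold change of -1.06 (SE 0.08, adjusted p = 2.32e-07 from edgeR). *Rsad2* ran from 24.1 over 26 to 29.1 CPM in controls and from 19.5 over 24.3 to 29.0 CPM under compression, a log2 fold change of -0.14 (adjusted p = 0.234 from edgeR), and -0.21 without replicate 6 (adjusted p = 0.0104 from edgeR). The ratio of *Cmpk2* to *Rsad2* was 1.06 to 1.24 in controls and 0.541 to 0.674 under compression.

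*Bst2*, which encodes tetherin, a protein that holds budding virions at the cell surface, had the highest level per length of the 40 genes in controls, at 265 CPM per kilobase of its longest transcript. It ran from 196 over 211 to 223 CPM in controls and from 142 to 161 CPM in 5 compressed libraries, whereas replicate 6 was at 278 CPM. With all libraries its log2 fold change was -0.27 and was not called (adjusted p = 0.132 from edgeR). Without replicate 6 it was -0.46 (adjusted p = 1.02e-09 from edgeR). *Rtp4*, an interferon-induced chaperone of membrane receptors, ran from 66.9 over 75.5 to 79.7 CPM in controls and from 43.8 over 45.4 to 71.5 CPM under compression, where the highest value was again that of replicate 6. The log2 fold change was -0.59 (adjusted p = 6.52e-04 from edgeR) and -0.72 without that library.

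**Figure D3:**
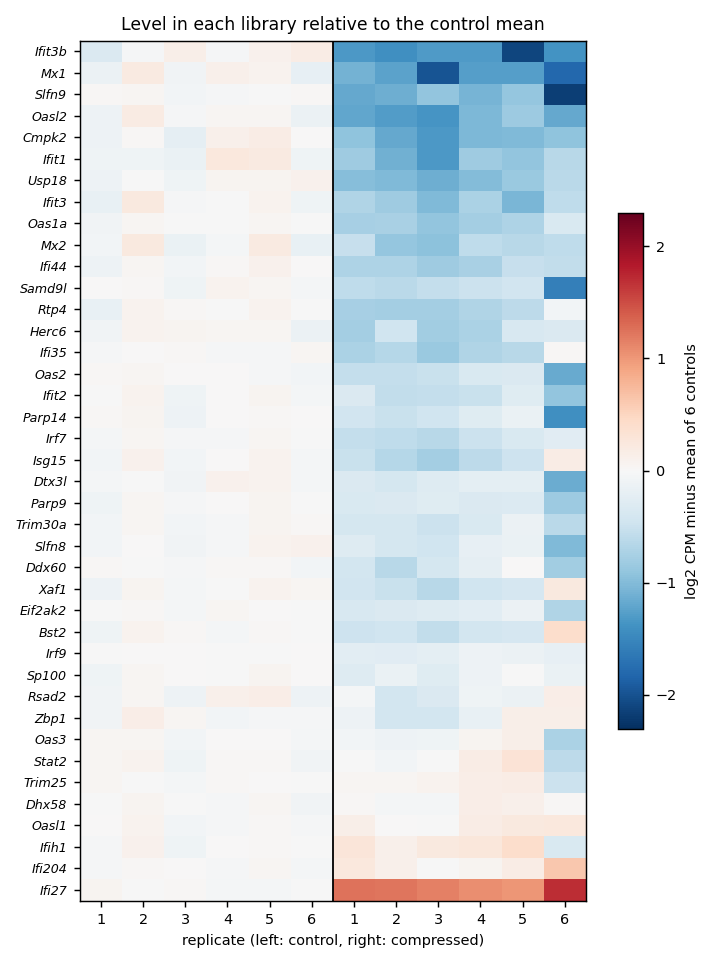
Level of each gene in each library as log2 CPM minus the mean of the 6 controls, with genes ordered by log2 fold change. The 6 controls are near 0 throughout, compressed replicates 1 to 5 share a pattern, and compressed replicate 6 departs from it in both directions.

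Parp9 and Dtx3l form a complex that joins ADP-ribosylation to ubiquitin transfer, Parp14 is a mono-ADP-ribosyltransferase encoded beside them, and the mRNAs of all 3 were lower. *Parp14* ran from 109.9 over 121 to 125 CPM in controls and from 44.9 over 87.5 to 108 CPM under compression, a log2 fold change of -0.49 (SE 0.15, adjusted p = 0.0175 from edgeR) and -0.37 without replicate 6. *Parp9* and *Dtx3l* had log2 fold changes of -0.40 and -0.41 (adjusted p = 0.00116 and 0.0149 from edgeR), and of -0.33 and -0.30 without replicate 6. They lie head to head on opposite strands, and 9.4% of the exon bases of *Parp9* overlap exons of *Dtx3l*. The libraries were directional, but whether the counting used strand is not given in the sources used here, so reads from that stretch cannot be assigned with certainty.

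*Trim30a*, which restrains signaling from Toll-like receptors, was lower at -0.40 (adjusted p = 3.31e-04 from edgeR), with 108 to 117 CPM in controls and 73.2 to 102 CPM under compression. *Trim25*, the ubiquitin ligase that activates the RNA sensor RIG-I, had the highest CPM of the 40 genes. It ran from 364 over 377 to 386 CPM in controls and from 269 over 394 to 424 CPM under compression, with a log2 fold change of 0.02 (adjusted p = 0.898 from edgeR) and 0.10 without replicate 6 (adjusted p = 0.00790 from edgeR).

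The other 7 interferon-induced genes were each lower. *Slfn9*, of the Schlafen family of growth regulators, ran from 37.5 over 39.5 to 40.3 CPM in controls and from 8.70 over 18.4 to 21.1 CPM under compression, a log2 fold change of -1.17 (SE 0.16, adjusted p = 3.72e-05 from edgeR). The lowest value was that of replicate 6, and without it the log2 fold change was -1.03 (adjusted p = 1.15e-13 from edgeR). Its neighbor *Slfn8* had a log2 fold change of -0.40 (adjusted p = 0.0120 from edgeR), and the ratio of *Slfn9* to *Slfn8* was 2.40 to 2.69 in controls and 1.14 to 1.85 under compression. Of their 50-base windows, 11.4% in *Slfn9* and 15.4% in *Slfn8* also occur in other genes, chiefly a Schlafen pseudogene.

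*Ifi44*, a widely used marker of the interferon response, was well counted, from 219.9 over 242 to 257 CPM in controls and from 135 over 146 to 165 CPM under compression. Its log2 fold change was -0.68 (SE 0.06, adjusted p = 6.28e-07 from edgeR). *Samd9l*, a restriction factor of viral translation, ran from 69.3 over 75.0 to 78.3 CPM in controls and from 24.9 over 50.4 to 54.6 CPM under compression, a log2 fold change of -0.67 (adjusted p = 0.00200 from edgeR) and -0.54 without replicate 6. *Ifi35*, a partner of the interferon-induced protein Nmi, had a log2 fold change of -0.56 (adjusted p = 0.00183 from edgeR) and one of -0.71 without replicate 6. In controls *Ifi35* lay at 54.0 to 56.9 CPM, and under compression at 30.3 to 35.5 CPM in 5 libraries and at 56.0 CPM in replicate 6. *Xaf1*, a proapoptotic antagonist of XIAP, and *Sp100*, a protein of nuclear bodies, had the smallest of these decreases, with log2 fold changes of -0.34 and -0.16 (adjusted p = 0.0313 and 0.0229 from edgeR), and of -0.49 and -0.17 without replicate 6. Both overlapped between the groups. The call of *Xaf1* was lost when any 1 of control replicates 2, 5 and 6 or compressed replicates 1 to 5 was left out (adjusted p = 0.0535 to 0.0680 from edgeR), and that of *Sp100* when any 1 of control replicate 5 and compressed replicates 1 and 3 was left out (adjusted p = 0.0516 to 0.0569 from edgeR).

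The place of compressed replicate 6 among the compressed libraries varied with transcript length. Of the 13 genes whose longest transcript is under 2500 nucleotides, 11 were above the median of the other 5 compressed libraries in replicate 6, and of the 20 genes over 3500 nucleotides, 15 were below it. *Bst2* (792 nucleotides), *Isg15* (756) and *Ifi35* (1362) were 0.86, 0.76 and 0.71 higher on the log2 scale, and *Slfn9* (5769), *Samd9l* (5330) and *Parp14* (7417) had differences of -1.10, -1.04 and -0.98. Across the 40 genes the Spearman correlation of this difference with length was -0.78, and across 14657 tested genes with a length it was -0.59. Genes of 1 library are not independent replicates, so no p is given. The log2 fold change itself had a correlation with length of 0.13 across the 40 genes with all libraries and of 0.28 without replicate 6. With the length trend of each library removed, edgeR called 29 of the 40 genes lower and 4 higher, against 26.2% and 29.1% of all genes (55.3% in either direction). In that fit *Sp100* lost its call (adjusted p = 0.0738 from edgeR). *Bst2* gained one, at -0.36 (adjusted p = 1.94e-04 from edgeR), and the increases added were those of *Oasl1*, *Ifih1* and *Ifi204*. What set replicate 6 apart was not tested.

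**Figure D4:**
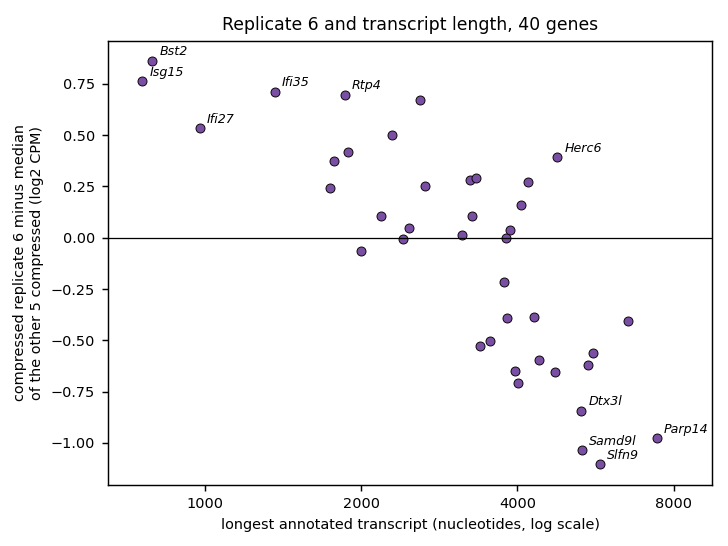
Difference between compressed replicate 6 and the median of the other 5 compressed libraries (log2 CPM) against the longest annotated transcript of each of the 40 genes (nucleotides, log scale). Short transcripts such as *Bst2* and *Isg15* lie above 0 and long ones such as *Slfn9*, *Samd9l* and *Parp14* lie below.

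Levels per length set the order of the genes in controls. After *Bst2* (265 CPM per kilobase) came *Ifi27* (80.6), *Isg15* (74.5), *Irf7* (70.9) and *Trim25* (67.4), and the lowest were *Ifit3b* (0.878) and *Mx1* (0.419). Of the 5 highest, *Irf7* and *Isg15* were lower, *Ifi27* was higher and *Bst2* and *Trim25* were not called, and both of the lowest were lower.

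Transcripts of the interferons themselves were at or near the limit of detection. *Ifnb1*, which encodes interferon beta, held 15 counts over the 6 controls and 15 over the 6 compressed ones. Scaled to library size, the compressed over control ratio was 1.13, and its exact 95% interval, for counting error alone, ran from 0.516 to 2.49. That ratio includes compressed replicate 6, which held the highest level at 0.186 CPM. The other compressed libraries held 0 to 0.0913 CPM and the controls 0.0242 to 0.128 CPM, and no ratio was computed without replicate 6. *Ifna1*, *Ifna2*, *Ifna4*, *Ifne* and *Ifnz* had 0 counts, which allows a level of up to 0.0126 CPM over the controls and 0.0142 CPM over the compressed libraries. A change in *Ifnb1* within that interval was not detectable at this depth.

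Receptor and signaling genes had a called share near that of all tested genes. Of 29 genes of interferon signaling listed, 19 were tested, of which 7 were higher, 2 lower and 10 not called. Over all tested genes the shares were 24.5% higher, 21.9% lower and 46.4% in either direction, so the share of this list that was called, 47.4%, was near that of all genes. Without compressed replicate 6, 9 were higher and 5 lower, against 33.8% and 32.2% of all genes (66% in either direction). With any other single library left out, 5 or 6 were higher and 2 lower. Of the 15135 to 15170 genes tested in those fits, 3326 to 3525 were higher and 2999 to 3154 lower. *Irf5* and *Ptpn6* lost their calls in 11 and 10 of these 12 omissions. *Ifnar1* was higher with a log2 fold change of 0.30 (adjusted p = 0.00461 from edgeR), and *Ifnar2* had one of -0.08 (adjusted p = 0.322 from edgeR). *Tyk2* was higher at 0.44 (adjusted p = 0.0132 from edgeR), and *Jak1* had a value of 0.13 (adjusted p = 0.394 from edgeR), which without compressed replicate 6 was 0.23 and passed the test. *Irf3* had a value of -0.08 (adjusted p = 0.373 from edgeR), which without replicate 6 was -0.15 and passed. The genes that rose most were *Socs3* (1.76), an inhibitor of cytokine signaling, *Jak2* (0.93), a kinase of the interferon gamma and other cytokine receptors, and *Irf8* (0.56), a factor of the macrophage lineage. *Ptpn1* and *Irf1* were lower, at -0.27 and -0.20.

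The list of genes for nucleic acid sensing upstream of interferon, which holds adaptors, kinases and nucleases besides sensors, had calls in both directions. Of 21 genes listed and tested, 11 were lower, 6 higher and 4 not called. The shares were 52.4% lower and 28.6% higher, against 21.9% and 24.5% of all tested genes. With any single library other than compressed replicate 6 left out, 8 or 9 were lower. Of the 15135 to 15170 genes tested in those fits, 2999 to 3154 were lower. *Tlr7* and *Trex1* each lost their calls in 9 omissions. *Cgas* (matched by its older symbol), the sensor of cytosolic DNA, *Tlr3*, the endosomal sensor of double-stranded RNA, *Tlr9*, the endosomal sensor of DNA, and *Myd88*, the adaptor of most Toll-like receptors, were lower, with log2 fold changes of -1.02, -0.80, -0.65 and -0.58. The call of *Tlr9* (adjusted p = 0.0468 from edgeR) was lost when any 1 library other than compressed replicates 4 and 6 was left out (adjusted p = 0.0591 to 0.0853 from edgeR), and without replicate 6 its log2 fold change was -0.46. *Ikbke*, a kinase that phosphorylates Irf3 and Irf7, rose by 1.57, *Tlr4* by 0.72 and its adaptor *Ticam2* by 0.68. None of *Ikbke*, *Tlr4* and *Ticam2* encodes a sensor of nucleic acid. *Aim2*, a sensor of cytosolic DNA picked out after its value was seen, was among the genes called higher with all libraries. Without compressed replicate 6 its log2 fold change was 0.20 (adjusted p = 3.54e-06 from edgeR). *Ddx58*, which encodes RIG-I and was picked out after its value was seen, was lower at -0.31 (adjusted p = 0.0182 from edgeR).

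Interferon-stimulated genes outside the 40 were called in both directions. Of 57 listed, 51 were tested, of which 21 were lower, 11 higher and 19 not called, and the median log2 fold change was -0.21. The shares were 41.2% lower and 21.6% higher, against 21.9% and 24.5% of all tested genes. The decreases were led by *Slfn3* (-1.05), a Schlafen gene, *Phf11d* (-0.91), *Oas1g* (-0.68) and *Parp12* (-0.68), an antiviral ADP-ribosyltransferase. The increases were led by *Ifitm1* (1.79), of the membrane proteins that block viral entry, which held only 53 counts over the controls and 164 over the compressed libraries, *Isg20* (1.32), an RNA exonuclease, *Slfn2* (0.83) and *Ifitm6* (0.82). *Cxcl10*, an interferon-induced chemokine picked out after its value was seen, had a log2 fold change of -0.27 (adjusted p = 0.0665 from edgeR) and of -0.40 without replicate 6 (adjusted p = 1.01e-05 from edgeR).

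Guanylate-binding proteins (GBP) and immunity-related GTPases (IRG), which attack the membranes of intracellular pathogens and are induced chiefly by interferon gamma, had lower mRNA where they were called. Of 19 listed, 12 were tested, of which 7 were lower, 0 higher and 5 not called, and the median log2 fold change was -0.69. The share called lower was 58.3%, against 21.9% of all tested genes, of which 24.5% were called higher. For higher members, the largest log2 fold change was 0.44, that of *Gbp5*, and edgeR gave an unadjusted p under 0.05 for 0 and DESeq2 called 0. The leading decreases were those of *Tgtp2* (-1.38), with 84 counts over the controls and 28 over the compressed libraries, *Gbp9* (-1.23), *Irgm2* (-1.08) and *Irgm1* (-0.99). None of these lists was tested against another, and differences between lists are given as counts only.

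**Figure D5:**
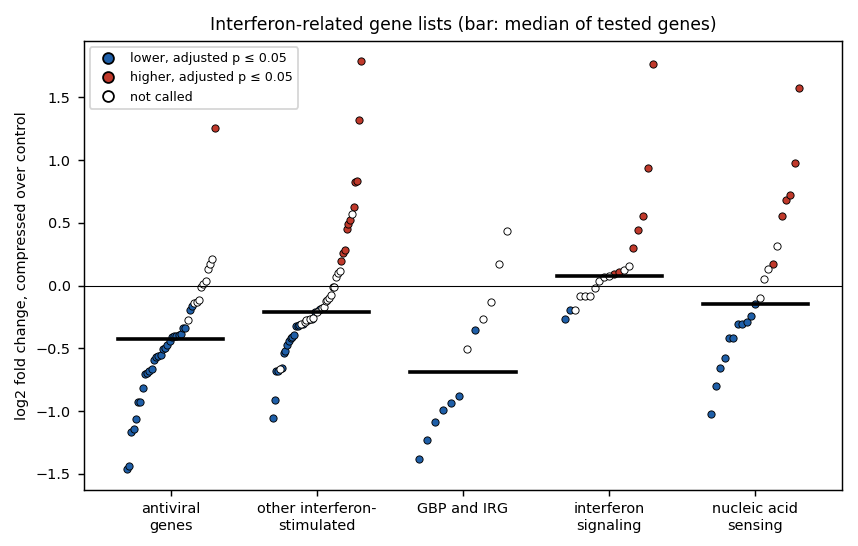
Change of each tested gene as log2 of compressed over control in 5 lists (points in order of value; blue, called lower; red, called higher; open, not called; bar, median). The medians are -0.43 for the 40 antiviral genes, -0.21 for other interferon-stimulated genes, -0.69 for GBP and IRG genes, 0.08 for interferon signaling and -0.15 for nucleic acid sensing.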

How the data were processed

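RNA from 12 RAW264.7 samples was sequenced after mRNA enrichment in directional libraries. The authors aligned reads with STAR 2.7.2, their processing notes name GRCm39, and they deposited whole-number counts per Ensembl gene with no normalization. Which program counted the reads, with which strand setting and annotation release, is not given in the sources used here. All 12 columns were matched to samples by label, and no column was left unused. Symbols came from GENCODE M21 by ID for 51948 of 56941 IDs, which held 99.5% of counts, and lengths are of the longest transcript there. Older symbols were accepted (*Cgas* is listed as *Mb21d1*).

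Counts were fitted in R 4.3.3 with edgeR 4.0.16 (TMM factors, filterByExpr with a minimum count of 10, quasi-likelihood F test, condition only), and p-values were adjusted by Benjamini-Hochberg over 15001 genes and called at 0.05. The study's own tool, DESeq2 (1.42.0 here), was an alternative, with other scalings, other filters, a replicate block, removal of each library's length trend, a threshold of 0.01 and each library left out in turn. In counts simulated for this comparison over 15001 genes, 10, 39, 50 and 50 of 50 genes changed 1.25-, 1.5-, 2- and 4-fold were recovered. Of 160 genes called there, 11 had not been changed. Those counts were drawn independently for each gene, without a library that departs across genes as compressed replicate 6 does, so recovery in the real data may differ. Replicates differed by more than counting error. Averaged over genes, the chi-square of a pair of libraries was 2.27 to 8.31 among controls, 3.58 to 16.9 among the first 5 compressed replicates, and 170 to 228 where the pair included compressed replicate 6. Intervals and floors cover counting error only, and a floor is 3 counts over a group.

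Promoter windows are RefSeq sequences of GRCm38.p6, and motifs were searched on both strands. Shared 50-base windows and exon overlaps were computed in GENCODE M21. The 40 genes, the other lists and the ratios were chosen with earlier results of these data known. Lowest, median and highest CPM are given for called genes of the 40 with an absolute log2 fold change of at least 0.5, for *Irf7*, *Irf9*, *Stat2*, *Isg15* and *Usp18*, and for further genes that were added for contrast after their values were seen. From other lists, up to 4 called genes with the largest change per direction are named, with *Ifnb1*, *Ifnar1*, *Ifnar2*, *Jak1*, *Tyk2* and *Irf3* whatever their values. Results for some genes of these lists are not reported here.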

Additional observations from a re-analysis of the deposited data

Results flagged for a closer look

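In 17 groups of 6 libraries among the 40 genes, 1 library lay far from the other 5 by Dixon's criterion, which chance meets in about 1 in 20 groups. Of these, 15 were compressed replicate 6, and no explanation was weighed. That library lay outside the other 5 compressed libraries for 82% of all tested genes. The groups are therefore not independent, and their number cannot be set against 1 in 20. In compressed replicate 6 the level was above the other compressed libraries for *Isg15* (63.2 CPM, others 32.5 to 40.5), *Oas1a* (89.6, others 60.8 to 69.6), *Ifi35* (56.0, others 30.3 to 35.5), *Bst2* (278, others 142 to 161), *Xaf1* (41.9, others 23.2 to 27.7), *Rtp4* (71.5, others 43.8 to 49.5), *Ifi27* (255, others 160 to 187) and *Ifi204* (31.3, others 20.2 to 24.0). It was below them for *Oas2* (87.1 CPM, others 133 to 154), *Oas3* (170, others 259 to 307), *Parp9* (51.5, others 72.1 to 75.5), *Dtx3l* (31.3, others 51.9 to 59.3), *Trim25* (269, others 388 to 424), *Samd9l* (24.9, others 48.6 to 54.6) and *Slfn9* (8.70, others 17.5 to 21.1). The other cases were *Ifit3b* in compressed replicate 5 (0.396 CPM, others 0.646 to 0.700) and *Parp14* in control replicate 3 (110 CPM, others 120 to 125).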

How the results depend on the processing

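The number of the 40 genes called lower was 29 with DESeq2, RLE factors, library size alone and the length trend removed, 28 without a filter, 27 of 38 tested with a mean normalized count over 50, 22 at an adjusted p of 0.01 and 27 to 32 when single libraries were left out. Over all genes, 3369 of 15001 were lower with RLE factors and 3156 of 31565 without a filter. The mean count filter gave 2912 of 11709, the threshold of 0.01 gave 2426 of 15001, and single omissions gave 2999 to 4864. Of the 40 genes, 4 were called higher with the length trend removed, against 29.1% of all genes. When single libraries were left out 1 to 5 were, against 3326 to 5117 of all genes. The median log2 fold change of the 40 genes ranged from -0.49 with library size alone to -0.40 with the mean count filter. Of interferon signaling genes, 4 were called higher and 1 lower at an adjusted p of 0.01, and 2 to 5 were lower when single libraries were left out. Of nucleic acid sensing genes, 6 were called lower at 0.01. At that threshold 2785 of 15001 genes tested were called higher and 2426 lower. No called gene changed direction under these alternatives, but the uncalled genes *Stat2*, *Trim25* and *Dhx58* of the 40 did under some, such as library size alone for *Trim25* and *Dhx58*. Same-numbered samples did not deviate together (correlations of -0.12 to 0.04), and 0 of 12 libraries correlated best with their own number, so the numbers were not taken as pairs. With the replicate block, edgeR called 29 of the 40 genes lower and 1 higher, and 3299 of all genes higher and 3094 lower. The causes were not tested. Depth limits the interferon transcripts, *Mx1* and *Ifit3b* most.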
